A study of Mus musculus with 80 samples.

Results

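The Pparg locus was examined for RXR binding in 40 mouse livers. The locus was taken as the gene body of Pparg (mm10, chr6:115360951-115490399, plus strand, 129449 bp) with 5 kb upstream and 1 kb downstream, and every RXR peak overlapping that window was a member. There were 39 such peaks, of 589904 peaks in all, and overlapping peaks merged into 15 sites, of 215015 sites in the genome. The peaks came from ChIP-Seq (chromatin immunoprecipitation with sequencing) of male mice aged 5 months that had been on their diets for 12 weeks. The 8 groups of 5 livers were wildtype (WT) mice and mice with liver-specific knockout (KO) of PPARγ, each given a control diet (Control), a control diet with pioglitazone (Pio), a high-fat diet (HFD) or a high-fat diet with pioglitazone (HFD-Pio). KO mice carried a loxP-flanked Pparg and Cre under the albumin promoter, which acts in hepatocytes, so that other cells of the liver keep the gene. The loxP-flanked exons are not given in the sources used here, and the WT mice were C57BL6/J rather than loxP littermates. A called peak does not measure whether an exon was deleted. The labels name an RXR antibody for the 20 WT libraries and for KO Control, but none for the other 15 KO libraries, whose titles name RXR, and comparisons with those groups rest on the titles.

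PPARγ is a nuclear receptor that binds DNA together with RXR at direct repeats of the half-site AGGTCA, and pioglitazone is one of its ligands. It drives the formation of adipocytes, where its own gene is among its targets, and it is known to promote fat storage in hepatocytes when it rises there. Epithelium of the colon is another tissue known for high PPARγ. The gene has separate promoters for PPARγ1, which lies at the start of the locus, and for PPARγ2, whose own exon is exon 1 of the transcript Pparg-201 used here for numbering. Exons 3 and 4 encode the zinc fingers of the DNA-binding domain, and exons 6 and 7 most of the ligand-binding domain.

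RXR peaks at Pparg fell mostly on exons, and none overlapped the start of the gene or the PPARγ2 exon. Of the 39 peaks, 32 overlapped an exon of Pparg-201, although its exons (1767 bp) made up only 1.3% of the window. Exonic peaks were called in 7 livers, 4 of WT Pio and 3 of WT HFD-Pio, and in none of the 10 WT livers without Pio or of the 20 KO livers. Among all genes with an exonic peak in WT Pio or WT Control, 29.2% were likewise called in at least 3 of 5 WT Pio livers and 0 of 5 WT Control livers. No peak lay in the 5 kb upstream or the 1 kb downstream of the gene. The summit nearest to the start of the gene was 30.1 kb inside it. The summit nearest to the PPARγ2 exon was 1.65 kb before its start, in WT Control replicate 1.

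The following stretches of the locus are printed because the results turn on them, all from the plus strand of the reference (RefSeq, GRCm38.p6, chromosome 6). Exon 4 (the exon is chr6:115450944-115451082) and exon 5 (chr6:115463086-115463285) are shown with 50 bases on either side, with the exon in capitals, because peaks lay inside these exons or stopped near their borders. Site 13 (chr6:115473089-115473293), a stretch of exon 6, held the strongest peak, and its capitals mark the bases that all 6 of its peaks shared. Site 8 (chr6:115460396-115460606) is a peak in intron 4 of an untreated WT liver, with the half-site, here on the other strand, in capitals. Site 9 (chr6:115462348-115462504) is the only peak of a KO liver, with the 21 bases centred on its summit in capitals.
exon 4: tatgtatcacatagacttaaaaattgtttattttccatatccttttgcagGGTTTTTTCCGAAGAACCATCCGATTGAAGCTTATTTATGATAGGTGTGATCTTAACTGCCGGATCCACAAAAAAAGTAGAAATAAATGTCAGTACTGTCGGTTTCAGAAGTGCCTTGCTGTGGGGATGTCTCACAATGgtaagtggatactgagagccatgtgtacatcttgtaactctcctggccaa
exon 5: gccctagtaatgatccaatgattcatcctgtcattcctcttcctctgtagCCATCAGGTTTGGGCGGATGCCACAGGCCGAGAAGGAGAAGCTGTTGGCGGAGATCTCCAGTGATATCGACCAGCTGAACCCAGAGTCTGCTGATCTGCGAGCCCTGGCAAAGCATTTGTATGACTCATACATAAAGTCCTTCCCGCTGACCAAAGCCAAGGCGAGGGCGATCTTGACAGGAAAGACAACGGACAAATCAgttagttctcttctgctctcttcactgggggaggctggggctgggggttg
site 13: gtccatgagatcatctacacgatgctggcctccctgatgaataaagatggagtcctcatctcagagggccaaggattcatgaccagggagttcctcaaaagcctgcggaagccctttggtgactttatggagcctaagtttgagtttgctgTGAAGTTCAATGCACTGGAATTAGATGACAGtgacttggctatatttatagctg
site 8: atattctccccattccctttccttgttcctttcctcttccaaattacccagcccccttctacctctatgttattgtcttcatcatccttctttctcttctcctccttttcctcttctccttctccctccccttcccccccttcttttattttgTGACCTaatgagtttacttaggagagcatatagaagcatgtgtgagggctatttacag
site 9: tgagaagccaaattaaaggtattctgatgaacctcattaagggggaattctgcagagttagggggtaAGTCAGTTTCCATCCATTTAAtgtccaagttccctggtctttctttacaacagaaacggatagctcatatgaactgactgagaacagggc

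The exonic peaks lay mostly or wholly within exons. They held 2974 bp in all, of which 2854 bp (96.0%) were exon, and 29 of the 32 lay wholly inside an exon. The exception of any size was the exon 5 peak of WT Pio replicate 1, which ran 313 bp and had 63.9% of its bases in the exon. The summit was in coding sequence in 28 peaks and in the 3′ untranslated part of exon 7 in 4. Exonic peaks were short, at 45 to 313 bp with a median of 77 bp, and rested on few tags, with 2 to 9 tags piled up at the summit (median 4). Fold enrichment, the deposited ratio of ChIP signal to local background, ran from 2.75 to 9.11 with a median of 4.66. With so few tags it largely followed the tag count. In WT Pio replicate 3, summits of 3, 4, 6 and 9 tags had 3.64, 4.56, 6.38 and 9.11. A pair of summits with 5 tags there differed, at 5.47 and 3.53. The 7 peaks outside exons had fold enrichments of 2.73 to 4.59 (median 3.75), pileups of 2 to 6 tags and lengths of 45 to 212 bp. Of the exonic peaks, 10 reached a fold enrichment of 5 and 26 had a q of 0.05 or less, against 0 and 5 of the 7 others.

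**Figure D1:**
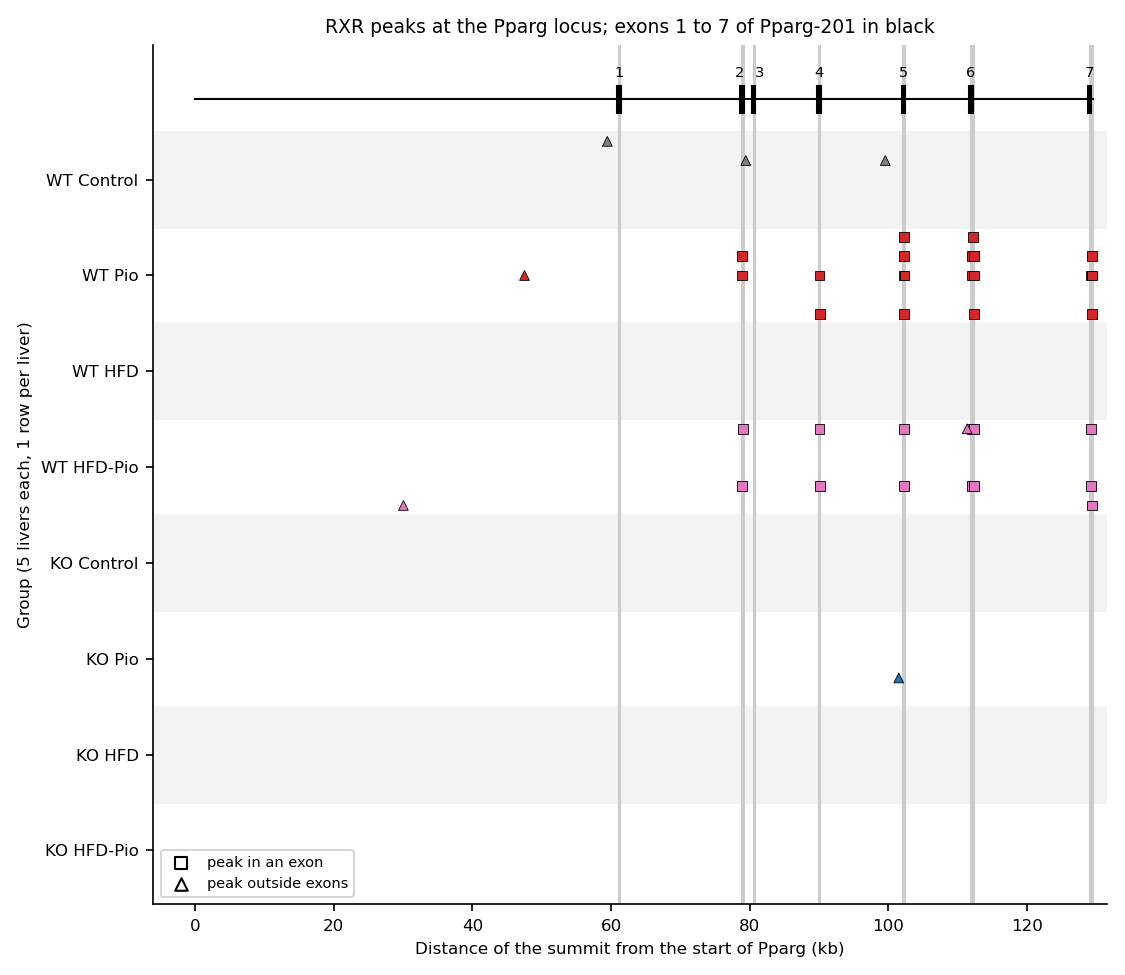
RXR peaks at the Pparg locus, with the distance of each summit from the start of the gene (kb) on the x axis and 1 row per liver, 5 rows per group; squares are peaks in an exon, triangles are peaks outside exons, and grey bands mark exons 1 to 7 of Pparg-201. The 32 squares lie in WT Pio and WT HFD-Pio on exons 2, 4, 5, 6 and 7, and KO livers hold 1 peak.

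Livers of 1 group differed widely. In WT Pio, the 5 livers had 2, 5, 9, 0 and 4 peaks at the locus (replicates 1 to 5), of which 2, 5, 8, 0 and 4 were exonic, and peaks were called on 2, 4, 5, 0 and 4 of the 7 exons. In WT HFD-Pio the livers had 7, 0, 0, 6 and 2 peaks, of which 6, 0, 0, 6 and 1 were exonic, on 5, 0, 0, 5 and 1 exons. WT Control livers had 1, 2, 0, 0 and 0 peaks and no exonic peak. All 5 WT HFD livers had 0 peaks. Among the 20 KO livers, 19 had 0 peaks and KO Pio replicate 4 had 1. Thus 1 of 5 livers of WT Pio and 2 of 5 of WT HFD-Pio looked like untreated livers at this locus, and the groups overlapped.

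**Figure D2:**
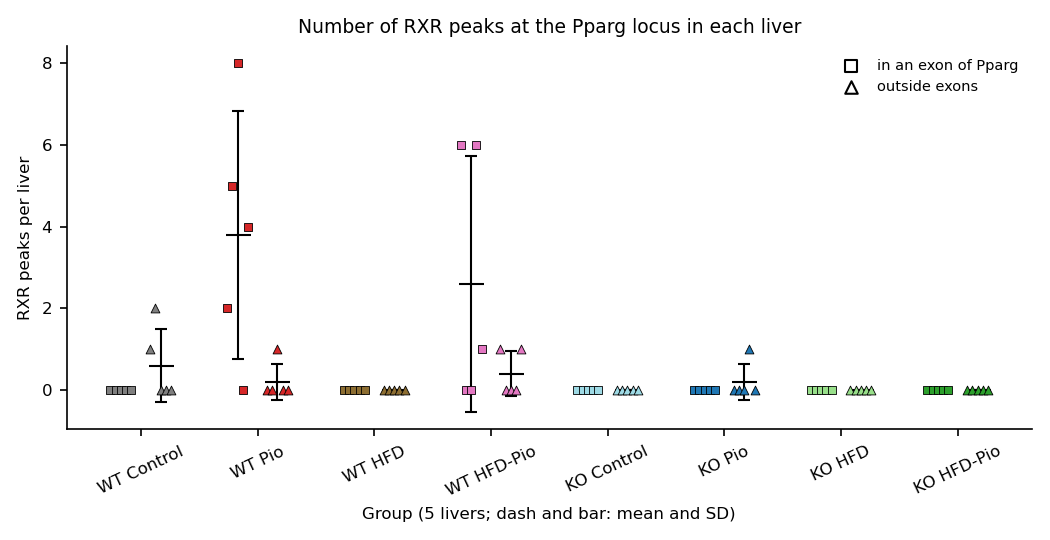
Number of RXR peaks at the Pparg locus per liver (y axis) in the 8 groups (x axis, 5 livers each), with squares for peaks in an exon, triangles for peaks outside exons, and dash and bar for mean and SD. Exonic peaks reach 8 in WT Pio and 6 in WT HFD-Pio and are 0 in every liver of the other 6 groups.

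Taken exon by exon from the start of the transcript, exon 1 (chr6:115422066-115422192), the exon particular to PPARγ2, had no peak in any liver. The 5′ non-coding exons of PPARγ1 had none either. Exon 2 (chr6:115439840-115440067), which encodes part of the N-terminal domain, was called in 4 livers. Its fold enrichments were 2.81 in WT Pio replicate 2, 4.56 in replicate 3, 3.75 in WT HFD-Pio replicate 1 and 4.76 in replicate 4. Exon 3 (chr6:115441492-115441661, 170 bp), which encodes the first zinc finger, had no peak. Exon 4 (139 bp), which encodes the second zinc finger and is shorter than exon 3, was called in 4 livers, with fold enrichments of 7.10 and 4.65 in WT Pio replicates 3 and 5 and of 4.69 and 4.64 in WT HFD-Pio replicates 1 and 4. All 4 of those peaks lay inside the exon as printed.

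Exon 5 (200 bp) was called in 6 livers and had 7 peaks. In WT Pio its fold enrichments were 6.84 in replicate 1, 6.55 in replicate 2, 5.47 and 3.53 in replicate 3, which had a pair of peaks there, and 4.69 in replicate 5. In WT HFD-Pio they were 6.19 in replicate 1 and 7.62 in replicate 4. The peak of WT HFD-Pio replicate 1 (chr6:115463086-115463283) ran from the first base of the exon to 2 bp before its end, and that of replicate 4 (chr6:115463194-115463285) stopped at its last base. The exon 5 peak of WT Pio replicate 1 began 103 bp before the exon.

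Exon 6 (chr6:115472861-115473311, 451 bp), part of the ligand-binding domain, was called in 6 livers. It had 10 peaks in 2 sites, site 12 (chr6:115472875-115472982) in its 5′ part and site 13 in its 3′ part. Site 13 held the strongest peak of the locus, that of WT Pio replicate 3, with a fold enrichment of 9.11, a pileup of 9 tags and a −log10 q of 12.3. Its other fold enrichments were 5.32, 3.74 and 3.75 in WT Pio replicates 1, 2 and 5 and 4.69 and 3.74 in WT HFD-Pio replicates 1 and 4. Site 12 was called in 4 livers, at 2.80 and 6.38 in WT Pio replicates 2 and 3 and at 5.63 and 4.76 in WT HFD-Pio replicates 1 and 4. Every liver with a peak at site 12 also had one at site 13.

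Exon 7 (chr6:115489948-115490399, 452 bp, 245 bp of them coding) was called in 6 livers and had the lowest values, 2.75 to 4.68. Site 14 (chr6:115490043-115490159) lay in its coding part and was called in WT Pio replicate 3 (4.56) and WT HFD-Pio replicates 1 (3.75) and 4 (3.81). Site 15 (chr6:115490247-115490372) lay in its untranslated part and was called in WT Pio replicates 2 (4.68), 3 (3.64) and 5 (2.82) and in WT HFD-Pio replicate 5 (2.75). That last peak was the only exonic call of WT HFD-Pio replicate 5, with a pileup of 2 tags.

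**Figure D3:**
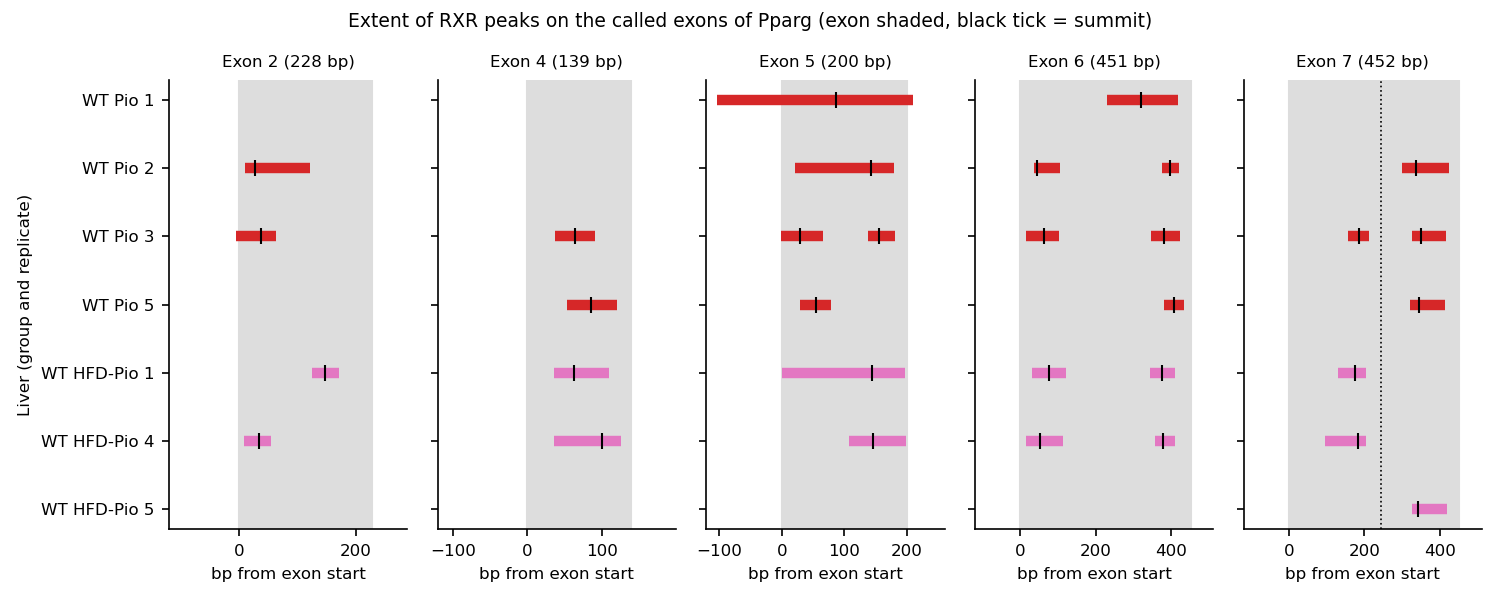
Extent of each exonic RXR peak (bar) in the 7 livers that had any (y axis), against position in bp from the start of exons 2, 4, 5, 6 and 7 (x axis); the exon is shaded, a black tick is the summit, and the dotted line in exon 7 is the end of the coding sequence. Bars stay within the shading except in WT Pio replicate 1 at exon 5, which begins 103 bp before it, and, by a few bp, in WT Pio replicate 3 at exons 2 and 5.

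**Figure D4:**
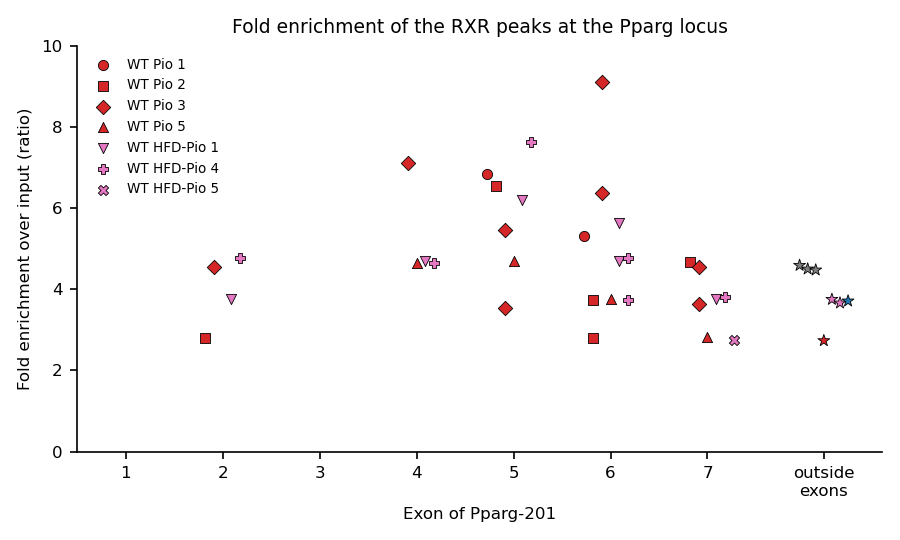
Fold enrichment over input (y axis) of the 39 peaks by exon of Pparg-201, with peaks outside exons at the right (stars, coloured by group: WT Control grey, WT Pio red, WT HFD-Pio pink, KO Pio blue). Values above 5 occur on exons 4, 5 and 6 and reach 9.11 on exon 6, whereas peaks outside exons stay at or below 4.59.

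The 7 peaks outside exons each stood in 1 liver. WT Control replicate 1 had 1 at site 3 (chr6:115420317-115420528, fold enrichment 4.59), 1538 bp before the PPARγ2 exon. WT Control replicate 2 had 1 in intron 2 (chr6:115440192-115440402, 4.50), 125 bp from exon 2, and site 8 in intron 4 (4.47), printed above. In Pio-treated WT livers they were called at 2.73 in WT Pio replicate 3 (chr6:115408457-115408501), at 3.75 in WT HFD-Pio replicate 1 (chr6:115472263-115472309, intron 5) and at 3.66 in WT HFD-Pio replicate 5 (chr6:115390986-115391032). The KO peak, site 9, lay in intron 4, 582 bp before exon 5, with a fold enrichment of 3.71 and a pileup of 3 tags. Peaks outside exons were thus about as frequent in untreated as in Pio-treated WT livers, at 3 in WT Control, 0 in WT HFD, 1 in WT Pio and 2 in WT HFD-Pio.

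The design asks whether Pio changed RXR binding on each diet and whether that needed PPARγ. On the control diet, WT livers had 4 ± 3.39 peaks at the locus with Pio and 0.6 ± 0.894 without (SD, n = 5), a difference of 3.4 that did not pass the exact two-sided permutation test (p = 0.0873, adjusted over 12 contrasts p = 0.5). Without WT Pio replicate 3 the difference was 2.15, and leaving out each liver in turn gave 2.15 to 4.4. On HFD they had 3 ± 3.32 with Pio and 0 in all 5 livers without (exact permutation p = 0.167, adjusted p = 0.5). In KO livers the values were 0.2 ± 0.447 with Pio and 0 without on the control diet (exact permutation p = 1), and 0 in both groups on HFD. WT Pio exceeded KO Pio by 3.8 peaks (exact permutation p = 0.0476, adjusted p = 0.5), and WT HFD-Pio exceeded KO HFD-Pio by 3 (exact permutation p = 0.167, adjusted p = 0.5). With 5 livers a group the smallest p this test can give is 0.00794. HFD alone differed from Control by −0.6 peaks (exact permutation p = 0.444), and WT HFD-Pio from WT Pio by −1 (exact permutation p = 0.73). These comparisons share groups, WT Pio and WT HFD-Pio each entering 3 of them.

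Counting exonic peaks alone, a choice made after the data were seen, raised the difference on the control diet but left it short of the adjusted threshold. WT Pio livers had 3.8 ± 3.03 exonic peaks and WT Control livers 0 (SD, n = 5, exact permutation p = 0.0476, adjusted p = 0.286), and the values against KO Pio were the same. WT HFD-Pio livers had 2.6 ± 3.13 and WT HFD and KO HFD-Pio livers 0 (SD, n = 5, exact permutation p = 0.167, adjusted p = 0.5). Over all peaks, the difference between genotypes in the Pio effect was 3.2 on the control diet (permutation test with 100000 resamples, p = 0.0344, adjusted over 4 differences p = 0.095) and 3 on HFD (permutation p = 0.0475, adjusted p = 0.095). The value on HFD is not read as a result. There WT HFD, KO HFD and KO HFD-Pio were 0 in every liver, so it is only that of WT HFD-Pio from 0. The exact permutation test of those 3 peaks gave p = 0.167. For exonic peaks the difference between genotypes is not read as a result either. WT Control, KO Control and KO Pio were 0 in every liver, and on the control diet the difference is only that of WT Pio from 0. In WT livers the Pio effect on HFD minus that on the control diet was −0.4 peaks (permutation p = 0.866).

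Genotype went together with depth and with the peak cutoff, and these cannot be told apart. WT ChIP libraries kept 2.04 to 4.26 megatags (Mtags) after duplicate removal and were called at a p of 0.001, while KO libraries kept 0.628 to 1.06 Mtags and were called at a q of 0.05. With 1 common q of 0.05 the locus kept 26 exonic peaks and 5 others. With fewer tags, KO libraries had 7145 to 26531 peaks in annotated exons (72.3 to 96.7% of their peaks). WT libraries had 26 to 348 without Pio (2.69 to 11.7%) and 641 to 10834 with Pio (15.2 to 65.7%). Exonic peaks were abundant in KO libraries, and Pparg exons had none there, as was common among genes. Of 21911 protein-coding genes, 10126 had an exonic peak in any KO Pio or KO HFD-Pio liver. In KO Control or KO HFD livers 9570 had one.

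Among WT livers, exonic peaks at Pparg went with exonic peaks in the whole library. The 7 livers with Pparg exonic peaks had 3639 to 10834 exonic peaks in the library. The Pio-treated WT livers without any had 755 (WT Pio replicate 4), 641 and 888 (WT HFD-Pio replicates 2 and 3). The estimated fragment length was 45 to 48 bp in 6 WT libraries, replicates 2, 3 and 5 of WT Pio and 1, 4 and 5 of WT HFD-Pio. All 6 had Pparg exonic peaks, and together they held 30 of the 32. The other 2 were in WT Pio replicate 1, whose fragment estimate was 191 bp. Those 6 libraries were then left out, a choice made after the data were seen. That left WT Pio replicates 1 and 4 and WT HFD-Pio replicates 2 and 3. WT Pio exceeded WT Control by 1 exonic peak (exact permutation p = 0.286, adjusted p = 1), and WT HFD-Pio and WT HFD were both at 0. As the 6 held 30 of the 32 exonic peaks, this drop was fixed in advance and decides nothing. Per 10000 peaks called in the library, the locus had 2.48 ± 1.43 in WT Pio and 2.24 ± 4.20 in WT Control livers (SD, n = 5, exact permutation p = 0.968). That WT Control mean came mostly from replicate 1, where 1 peak outside exons in a list of 1036 gave 9.65. On HFD the scaled values were 2.04 ± 2.49 with Pio and 0 without (exact permutation p = 0.167, adjusted p = 0.667). WT Pio exceeded KO Pio by 2.41 (exact permutation p = 0.0476, adjusted p = 0.571). The part of library composition and fragment length in the result was not tested.

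**Figure D5:**
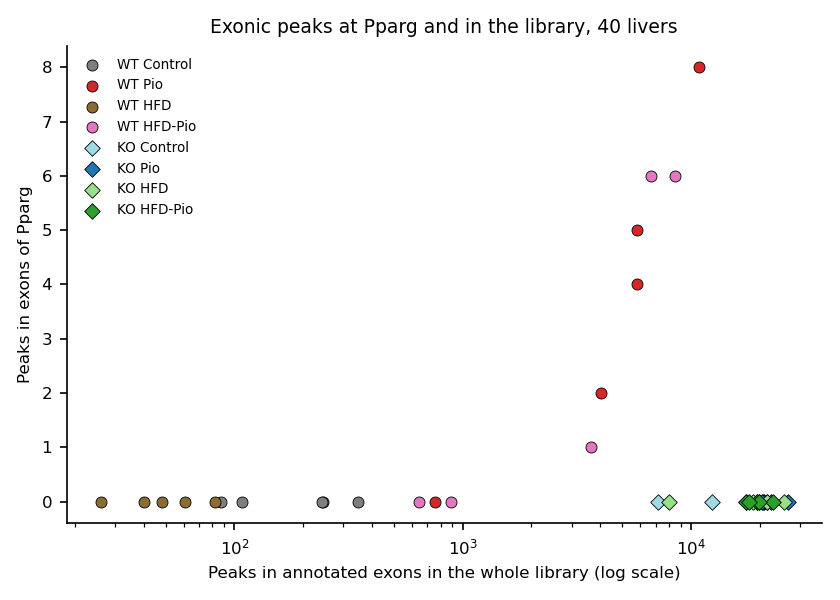
Peaks in exons of Pparg (y axis) against peaks in annotated exons of the whole library (x axis, log scale) for the 40 livers, with circles for WT and diamonds for KO. WT livers have exonic Pparg peaks only from 3639 library exonic peaks upward, and the 20 KO livers stay at 0 with 7145 to 26531.

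Set among all protein-coding genes with the same window rule, the gain at Pparg was common. A gene counted as gained when at least 3 of 5 livers of 1 group and 0 of 5 of the other had a peak. For peaks in the gene's own exons, Pparg was gained in WT Pio over WT Control (4 livers against 0, Fisher's exact p = 0.0476, adjusted p = 0.235 over 4736 genes), as were 29.2% of the genes tested. It was also gained in WT HFD-Pio over WT HFD (3 against 0, Fisher's exact p = 0.167, adjusted p = 0.753), as were 22.1%. With 1 common q of 0.05 this was 2 livers against 0 and no longer a gain, since the only exonic peak of WT HFD-Pio replicate 5 had a −log10 q of 0.128. Over all peaks, WT Pio against WT Control was 4 livers against 2 (Fisher's exact p = 0.524) and was no gain, a call that 16.2% of genes reached. WT HFD-Pio over WT HFD was a gain, as in 19.8%. The gain over KO livers was rarer. In exons, Pparg was gained in WT Pio over KO Pio (4 against 0, Fisher's exact p = 0.0476, adjusted p = 0.134 over 10320 genes) together with 2.31% of genes. It was gained in WT HFD-Pio over KO HFD-Pio (3 against 0, Fisher's exact p = 0.167, adjusted p = 0.364) together with 1.7%. That call too was lost at the common q of 0.05, with 2 livers against 0, so it held only under the unequal cutoffs of the genotypes. Over all peaks, WT Pio against KO Pio was 4 livers against 1 (Fisher's exact p = 0.206) and was no gain, a call that 3.79% of genes reached, and WT HFD-Pio was gained over KO HFD-Pio, as were 2.77%. No gene reached an adjusted p of 0.05 in WT Pio over WT Control by Fisher's exact test, and for exonic peaks 958 genes had an unadjusted p below that value. Against KO livers, with direction left aside, 2211 genes reached it in exons for WT Pio and KO Pio. For WT HFD-Pio and KO HFD-Pio 2021 did. Pparg was not among them. Over all peaks 0 genes did in either comparison.

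At the level of sites, sites 10 and 13 were each called in 4 WT Pio livers and 0 WT Control livers (Fisher's exact p = 0.0476, adjusted p = 1). Site 15 was called in 3 and 0 (Fisher's exact p = 0.167). All 3 passed the rule of 3 livers against 0, as did 5.16% of the sites tested. They also passed it over KO Pio, as did 1.93%. Each lost the call at a stricter cutoff in both comparisons, site 15 with 2 livers at a q of 0.05, site 10 with 2 and site 13 with 1 at a −log10 q of 5 or more. None of the 7 sites called in 3 or more livers passed it in WT HFD-Pio over WT HFD, where 4.1% of sites did, or over KO HFD-Pio, where 1.04% did.

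The combination shown by Pparg, exonic peaks in Pio-treated WT livers and none in KO livers, was a minority pattern. Of 1435 genes with an exonic peak in at least 3 of 5 WT Pio livers, 155 (10.8%) had none in the 20 KO livers. Of the 802 genes that reached 3 of 5 in both WT Pio and WT HFD-Pio, 96 (12.0%) had none in KO livers, and 90 of these, Pparg among them, had none in untreated WT livers either. The set of 7 livers with an exonic peak was identical to that of Pparg for 33 other genes. The 5 nearest in window length were Cdh17, a cadherin of the intestinal epithelium, Ass1, an enzyme of the urea cycle, Car1, a carbonic anhydrase, Nxpe2, and Dhrs3, a retinal reductase. Over all peaks, the most similar sets of livers were those of Rsph3b (Jaccard index 0.9, 9 livers shared of 10 in either), Tyw1, Hrh2, the histamine H2 receptor, and Blvrb, a biliverdin reductase (0.8 each), and Gsn, the actin-severing gelsolin (0.75).

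The neighbouring genes described here did not share the pattern. Mkrn2, which lies after Pparg, had exonic peaks in 20 of 20 KO livers and in no WT liver. Syn2, a synapsin of synaptic vesicles and the nearest protein-coding gene before Pparg, had exonic peaks in 14 KO livers and no WT liver. Timp4 had them in 2 KO livers, and Gm17482 in none.

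The other receptors of the PPAR and RXR families were unlike Pparg. Ppara, the main PPAR of hepatocytes, had a peak in 8 livers, all WT, and none in an exon. Ppard, which is broadly expressed, had an exonic peak in 1 KO liver, as did Rxra, the main RXR of liver. Rxrb had a peak in all 20 KO livers, exonic in 12, and in no WT liver. Rxrg, the RXR of muscle and brain, had exonic peaks in 5 KO livers. None of these 5 had an exonic peak in WT Pio or WT Control, so none could be gained there. Over all 21911 protein-coding genes, with or without a peak, 1385 (6.32%) were gained in exons of WT Pio over WT Control, and the lists that follow are counted on that same base. Of 13 other nuclear receptors that pair with RXR, 0 were gained. In that list the most often called were Rarb, with 28 livers of which 6 exonic, Thra, with 22 and 21, and Nr4a2, with 17 and 17.

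Of 12 coregulators of PPARγ, 1 (against 6.32% of all genes) was gained in exons of WT Pio over WT Control, Ppargc1a (PGC-1α, a coactivator of mitochondrial genes), with exonic peaks in 3 WT Pio livers, 0 WT HFD-Pio livers and 3 KO livers. The most often called, Ncoa1, Med1 and Ncoa3, had a peak in 31, 28 and 27 livers. Of 12 regulators of Pparg transcription, 1 was gained, Klf5, a Krüppel-like factor that activates Pparg in adipogenesis, with exonic peaks in 4 WT Pio, 1 WT HFD-Pio and 2 KO livers. In that list Zfp423 and Srebf1 were called most often, in 21 and 17 livers, followed by Ebf1 and Creb1 with 16 each. Of 20 target genes of PPARγ in liver, 2 were gained. Pck1, the gluconeogenic PEPCK, had exonic peaks in 5 WT Pio, 3 WT HFD-Pio and 0 KO livers, and so resembled Pparg. Ucp2, a mitochondrial carrier, had them in 4, 2 and 13. Fasn, fatty acid synthase, had them in all 20 KO livers and no WT liver, and Acsl1, an acyl-CoA synthetase, in 12 KO livers. Exonic peaks were absent from 10 of the 20 targets in all livers, Cidec, Fabp4, Mogat1 and Plin4 among them. Such absence was common, since only 12584 of 21911 protein-coding genes had an exonic peak in any liver.

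Genes that mark cell types were counted for exonic peaks. Of 9 hepatocyte markers, 0 had an exonic peak in any WT Pio or WT HFD-Pio liver, Alb and Apoa1 included. Among all 21911 protein-coding genes, 5476 had one in those livers. Lists of 9 or fewer genes are too short to set 0 apart from that share. Ttr alone of the hepatocyte markers had exonic peaks in KO livers, in 20 of 20. Among WT livers, 1 of WT Control had 16 exonic peaks over 5 of these markers. Of 7 adipocyte markers, none had an exonic peak in any WT liver and Retn had one in 1 KO liver, and Adipoq, Plin1 and Lep had none in any liver. Kupffer cell and macrophage markers summed to 0 or 1 exonic peak per liver, with 3 of 7 called anywhere, Csf1r in 4 KO livers. Of all 21911 protein-coding genes, 12584 had an exonic peak in any liver. Stellate and endothelial markers summed to 0 to 2 exonic peaks in each WT liver and to 4 to 25 in KO livers, Reln and Dcn leading. Neuronal markers summed to 25 to 47 exonic peaks in each KO liver, with 8 of 8 in at least 3 of 5 livers of every KO group. Of all protein-coding genes, 26.9% reached 3 of 5 livers in KO Pio. In WT Pio and WT HFD-Pio livers the neuronal markers summed to 0 to 4, with Tubb3 in 9 of 10.

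A list of 20 markers of intestinal epithelium, written after the values were seen, moved with Pparg. In the 7 livers with Pparg exonic peaks, 9 to 14 of the 20 markers had an exonic peak, with 19 to 39 such peaks per liver. The 3 Pio-treated WT livers without Pparg exonic peaks had 1 to 6, untreated WT livers 0 or 1 and KO livers 0 or 1. Cdh17, Clca1 and Lgals4 were exonic in 4 WT Pio, 3 WT HFD-Pio and 0 KO livers, and Slc26a3, the chloride exchanger of colon, in 5, 4 and 0. Cdx1, Tff3, Car4, Phgr1 and Gpa33 had no exonic peak in any liver. In all, 9 of the 20 had an exonic peak in at least 3 WT Pio livers and no KO liver, against 155 of 21911 protein-coding genes, and the choice of the list with these results known makes that share a description. The labels name liver as the tissue of every library, and the part of these genes in the Pparg result was not tested.

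The element that PPARγ binds with RXR was looked for at the Pparg sites. Within 100 bp of the summit, a direct repeat of AGGTCA spaced by 1 base, with up to 2 mismatches on either strand, occurred at 0 of 15 sites, against 2.25% of all sites. The half-site AGGTCA, on either strand and counted whether or not it was part of a repeat, occurred at 2 of 15 (13.3%), against 10.2% of all sites. These were site 5, the peak of WT HFD-Pio replicate 1 in exon 2, and site 8 in intron 4 of WT Control replicate 2, where it is shown in capitals above. These shares were not compared by a test, and a missing match says only that these letters are not in this window.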

How the data were processed

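RXR ChIP-Seq was made from 40 livers, each with its own input (80 samples). The authors aligned reads to mm10 with Novoalign and called peaks per library against its input with MACS2 2.1.1.20160309. Per the file headers, WT libraries had a p cutoff of 0.001 and KO libraries a q cutoff of 0.05. The deposited values used here were the pileup signal in tags, the ratio of ChIP to local background (fold enrichment), and −log10 p and −log10 q as deposited. Peak lists hold no reads per site, so no count test or counting interval was computed, and a shallow library can miss a weak peak.

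Peaks were merged into sites at 1 bp of overlap and placed on GENCODE M21. Numbers of peaks were compared by exact permutation over 252 assignments, adjusted by Benjamini-Hochberg over 12 contrasts, and numbers of livers by Fisher's exact test across all genes or sites. Differences in Pio effect were tested with 100000 resamples of residuals. On simulated data, genes set to be called in every liver of 1 group and none of the other passed the rule of 3 against 0. That outcome held by construction. The exact permutation test was checked only on a worked example, and the simulation did not cover the resampling of residuals. Livers are separate animals. Tests were run with scipy 1.17.1 and numpy 2.4.6 in Python 3.11.15, tables were handled with pandas 2.3.3, sequences were read with pysam 0.24.0, and plots were drawn with matplotlib 3.10.9. The locus, the lists and the tests were chosen with earlier results of these data known. Gene names of 9 of 10 hepatocyte markers were matched. Sites in 3 or more livers were described in full. Of the gene lists, the members called in most livers were to be named, and Ppargc1a, Klf5, Pck1, Csf1r, Retn, Mkrn2 and those of the intestinal list were otherwise chosen, as neighbours or after their values were seen, as were the genes listed as absent. Other cutoffs, windows, equal list lengths, each liver left out and a replicate block were tried, and exonic peaks alone and leaving out 6 short-fragment libraries were added after seeing the data. Some neighbouring genes are not reported here.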

Additional observations from a re-analysis of the deposited data

Results flagged for a closer look

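KO Pio replicate 4, with 1 peak at the Pparg locus, stood apart from the other 4 livers of its group, which had 0. With counts of 0 and 1, any single peak in a group sets its liver apart in this way. The peak lay in intron 4 and had 3 tags at its summit.

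The Pio effect on exonic peaks at Pparg on the control diet exceeded that of KO livers by 3.8 peaks in WT livers (100000 resamples, permutation p = 0.00281, adjusted p = 0.0112), for a measure chosen after the data were seen. WT Control, KO Control and KO Pio were 0 in every liver, so this is WT Pio set against 0, and the exact permutation test of the same 3.8 peaks gave an adjusted p of 0.286. The smaller p pools the spread of 3 groups at 0 with that of WT Pio and is no firmer evidence. WT and KO libraries also differed in depth and peak cutoff.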

How the results depend on the processing

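No contrast of the number of peaks or of livers passed its adjusted threshold in any setting tried. WT Pio against WT Control turned direction when peaks in annotated exons were left out (−0.4 peaks and −1 liver) and when lists were shortened to equal length (−0.2 peaks and −1 liver). WT HFD-Pio against WT Pio turned with exons left out (0.2 peaks, 1 liver), and leaving out each liver gave −2 to 0.25, the highest without WT Pio replicate 3. The difference between diets in the WT Pio effect turned with exons left out (0.8), per 10000 peaks (1.8) and without single livers (−1.4 to 0.85; 0.85 without WT Pio replicate 3, and 0.35 without WT HFD-Pio replicate 2 or 3). The difference between genotypes on the control diet was −0.6 with exons left out, 3.8 in exons alone (permutation test, adjusted p = 0.0112, with 3 of its groups at 0), and 1.95 to 4.2 without single livers, with 4.2 (permutation test, adjusted p = 0.00384) without WT Pio replicate 4. On HFD it was 0.4 to 3.2 over the other settings, lowest at a −log10 q of 5 or with exons left out. Without single livers it was 2 to 3.75, with 3.75 (permutation test, adjusted p = 0.018) without WT HFD-Pio replicate 2 or 3. The other 3 groups on HFD were at 0 in every liver, so this is WT HFD-Pio set against 0. The exact permutation test of the same 3.75 peaks gave an adjusted p of 0.19. The cause was not tested. No single site reversed or passed the adjusted threshold in a setting that gave a value, but sites 10, 13 and 15 each lost the call of 3 livers against 0 at a stricter cutoff, and so did the locus in WT HFD-Pio over WT HFD and over KO HFD-Pio, with 2 livers at a q of 0.05.

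With the replicate number as a block (exact paired sign-flip permutation, smallest possible p = 0.0625), p was 0.125 for WT Pio against WT Control (3.4 peaks), 0.25 for WT HFD-Pio against WT HFD and 0.125 for WT Pio against KO Pio, and no call changed. The deviations of livers with the same number had a correlation of −0.845 for WT HFD-Pio with WT Pio and −0.659 for WT Pio with KO Pio. For WT Pio with WT Control there was none (−3.66e-17). The other contrasts gave no value, because a group was at 0 in every liver. Each value rests on 5 livers a group at 1 locus, and that with KO Pio on a single KO peak. Whether the replicate numbers pair the samples cannot be decided from them.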
